A study of Mus musculus with 4 samples.

Results

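10 genes of heme export, heme breakdown and iron storage were followed in mechanically loaded osteocyte-like cells: *Flvcr1*, *Flvcr2*, *Hmox1*, *Hmox2*, *Blvra*, *Blvrb*, *Slc48a1*, *Slc40a1*, *Fth1* and *Tfrc*. They are 10 of the 55450 genes in the count table and were picked by name for their function, with the loaded-to-unloaded differences of these libraries already known. *Flvcr1* was among the genes called higher in that contrast. Their differences between the groups are therefore given as a description, without p-values. Calls of these genes in the fit over all genes are counted, and nothing is supported by them.

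Transcripts of wild-type MLO-Y4 cells, a mouse line with osteocyte features, were measured by RNA-seq to ask how mechanical loading remodels gene expression. The 2 loaded samples were grown on collagen-I coated silicone membranes of UniFlex plates and stretched equally in all directions for 12 h, with a strain of 20% and a frequency of 0.5 Hz. The 2 unloaded samples stood for the same 12 h in the incubator, in ordinary Corning 6-well plates. The plate therefore differs between the groups as well as the stretch, and their effects cannot be told apart. Depth was similar, with totals of 28941994 and 30058313 counts for unloaded cells and of 32185693 and 30337236 counts for loaded cells. The labels number the samples of each group but do not say that they were separate cultures, so p-values measure the spread between these samples. They come from 1 cell line and 1 time point.

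Markers of the cell type were checked first. *Pdpn*, *Gja1* and *Phex* of the osteocyte list were well covered, with at least 1270 counts in each library. *Dmp1* had 12 to 14 counts, *Fgf23* had 9 counts at most, *Sost* had 4 counts in 1 loaded library, and *Mepe* had 0 in all 4, so the markers of mature osteocytes were at or near 0. The osteocyte list as a whole summed to 687 and 689 CPM (counts scaled to 1000000 per library) in unloaded cells and to 848 and 770 CPM in loaded cells. Within it *Pdpn* had 143 and 151 CPM in unloaded cells and 215 and 228 CPM in loaded cells, higher in 2 of 2 libraries, and was the 1 of 4 tested osteocyte markers called higher at an adjusted p under 0.05 by edgeR (log2 fold change 0.59 ± 0.07 SE, adjusted p = 0.0334) and under 0.01 by DESeq2, where 0.338% and 1.36% of all tested genes were. *Phex* was also higher without overlap, with 43.7 and 43.8 CPM in unloaded cells and 47.5 and 55.8 CPM in loaded cells. Thus 2 of the 4 tested osteocyte markers were separate in the higher direction, where 22.1% of all tested genes were. In the osteoblast and fibroblast list *Col1a2* had 1296 to 1504 CPM and *Col1a1*, first by level per length, had 993 and 1032 CPM in unloaded cells and 931 and 976 CPM in loaded cells, without overlap. None of its 7 tested genes was called by edgeR or DESeq2 at 0.01, with 0 higher and 2 lower at an unadjusted p under 0.05 (edgeR), where 6.88% and 7.46% of all tested genes were. The 2 were *Pdgfra*, with 48.6 and 46.5 CPM in unloaded cells and 36.5 and 33.3 CPM in loaded cells, and *Col3a1*, with 432 and 433 CPM against 374 and 367 CPM. Thus 3 of the 7 were separate in the lower direction, and 1, *Runx2*, was separate in the higher direction, with 49.2 and 48.5 CPM against 56.4 and 53.2 CPM, where 24.5% and 22.1% of all tested genes were. This list summed to 3028 and 2957 CPM in unloaded cells and to 2696 and 2843 CPM in loaded cells. The part of these shifts in the values below was not tested. Because macrophages are the main heme-recycling cells of the body, their markers were read too. *Csf1r*, the most abundant of them, had 1573 and 1584 CPM in unloaded cells and 1558 and 1562 CPM in loaded cells. *Ptprc*, *Adgre1* and *Cd163* had at most 4 counts in any library and *Marco* had 0. Of the 7 macrophage markers 3 were tested and none was called by edgeR or DESeq2 at 0.01, with 2 lower at an unadjusted p under 0.05 (edgeR), where 7.46% of all tested genes were. These were *Cd14*, with 52.5 and 54.7 CPM in unloaded cells and 41.6 and 44.0 CPM in loaded cells, and *Cd68*, with 5.58 and 4.65 CPM against 3.07 and 2.82 CPM. All 3 tested macrophage markers, *Csf1r* included, were separate in the lower direction, where 24.5% of all tested genes were. The summed level of the list was 1631 and 1643 CPM in unloaded cells and 1603 and 1609 CPM in loaded cells. The 8 erythroid markers, which include the globins, summed to 1.09 CPM at most, and the 4 endothelial markers to 3.37 CPM at most. Among the latter *Kdr* had 0 counts in both unloaded libraries and 17 and 14 counts in the loaded ones. It passed the filter on low counts only through the loaded libraries, so its p-value is not used, and it was not called.

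Heme is an iron-bearing ring that serves as the prosthetic group of many proteins and is toxic when free. Cells return it from the endolysosome to the cytosol, open it with heme oxygenase into iron, carbon monoxide and biliverdin, or pass it out through exporters, and the released iron is stored in ferritin or leaves through ferroportin. *Hmox1* is a classical target of NRF2, the antioxidant transcription factor, and of its heme-sensing competitor BACH1. The translation or stability of several iron mRNAs is set by iron regulatory proteins, which bind hairpins in the untranslated regions.

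Across the table, 16269 genes were tested with edgeR. At an adjusted p under 0.01, 2 genes were called higher in loaded cells (0.0123% of those tested) and 14 lower (0.0861%). Of the 10 heme and iron genes, 9 passed the filter on low counts, and *Slc40a1* did not. *Flvcr1* was the only one of the 9 called higher and none was called lower. With no filter on low counts none of the 9 was called, and 0 genes of the whole table were called in either direction. The log2 fold change of *Flvcr1* was 1.79 in that fit. It was 1.84 and 1.75 without loaded replicates 1 and 2, and 1.93 and 1.67 without unloaded replicates 1 and 2. Calls across the table also depended on which library was left out, as given below. At an adjusted p under 0.05, edgeR called 2 of the 9 higher (*Flvcr1* and *Hmox1*), where 0.338% of all tested genes were. DESeq2 at 0.01 called *Flvcr1*, *Hmox1* and *Blvrb* higher, where it called 1.36% of its 12484 genes. In 6 of the 9 both loaded libraries lay above both unloaded libraries, and in 1 they lay below, where 22.1% and 24.5% of all tested genes did so. The genes were picked with these differences known, so nothing is read from these counts.

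Levels of different genes were compared as TPM-like values, which are counts per kilobase of exon scaled to the same total in each library. In unloaded cells the order of the mean levels was *Fth1* (1271 ± 15.8, SD, n = 2), *Tfrc* (313 ± 22.6), *Slc48a1* (303 ± 9.29), *Hmox1* (206 ± 2.37), *Hmox2* (83.0 ± 13.2), *Blvrb* (26.7 ± 0.868), *Blvra* (25.1 ± 1.44), *Flvcr1* (12.7 ± 1.78) and *Flvcr2* (0.631 ± 0.309). The replicates of *Tfrc* and *Slc48a1* overlapped, as did those of *Blvrb* and *Blvra*. In loaded cells *Fth1* was again first (1388 ± 2.58) and was followed by *Hmox1* (385 ± 15.5), *Slc48a1* (368 ± 15.5), *Tfrc* (322 ± 17.1), *Hmox2* (84.8 ± 19.6), *Flvcr1* (43.2 ± 1.20), *Blvrb* (42.0 ± 3.81), *Blvra* (19.7 ± 0.831) and *Flvcr2* (1.61 ± 0.432). Here *Hmox1* and *Slc48a1* overlapped, and so did *Flvcr1* and *Blvrb*. *Hmox1* ranked 4 without loading and 2 with it, and *Flvcr1* stood below both biliverdin reductases without loading and above *Blvra* with it.

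**Figure D1:**
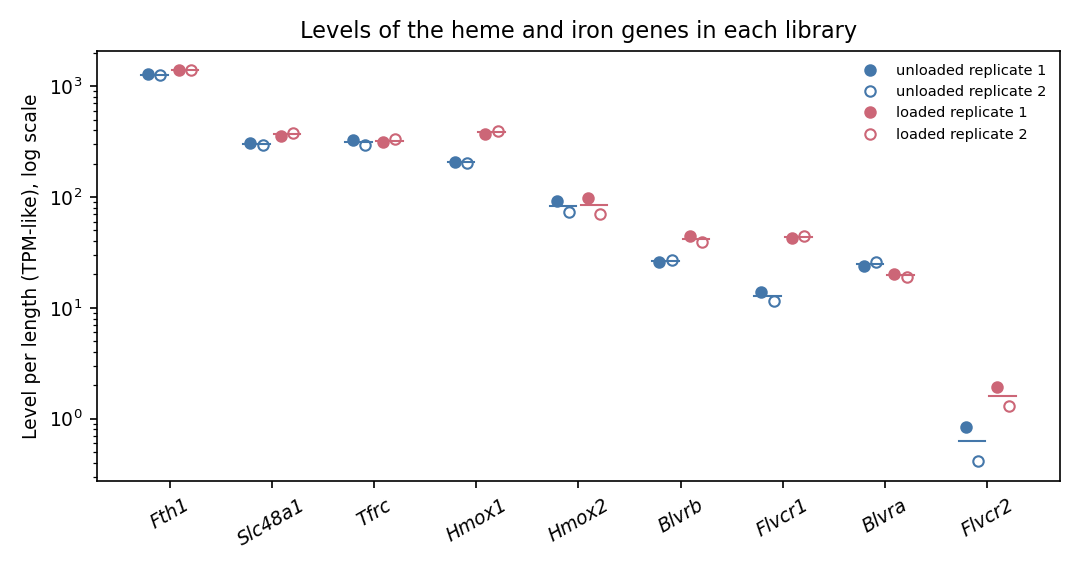
Level per length (TPM-like, log axis) of the 9 detected heme and iron genes in each library, filled points replicate 1, open points replicate 2, short lines the mean of each group. *Fth1* lies above all others in every library and *Flvcr2* below 2, and *Slc40a1*, with 0 counts in all 4 libraries, cannot be drawn on this axis.

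*Slc48a1* (HRG1, ENSMUSG00000081534.3, chr15:97778520-97792692, GRCm38, plus strand) encodes the transporter that moves heme out of the endolysosome. It had 246 and 242 CPM in unloaded cells and 289 and 312 CPM in loaded cells. Both loaded libraries were higher, and the nearest values of the groups differed 1.18-fold. Loaded over unloaded cells, the log2 fold change was 0.30 ± 0.07 (SE, 2 against 2 libraries). The gene shares 29 exonic bases with *Hdac7* on the other strand, and the counting is not stated to use strand. With the counts of both genes summed, an alternative chosen after seeing the data, the log2 fold change was 0.15. That sum holds all counts of *Hdac7*, not only those of the shared bases, so it does not give the value of *Slc48a1* alone.

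*Hmox1* (ENSMUSG00000005413.8, chr8:75093621-75100589, plus strand), the inducible heme oxygenase, had 3048 and 3212 counts in unloaded cells and 6227 and 6195 in loaded cells. These were 105 and 106 CPM against 193 and 208 CPM. The replicates within a group differed 1.01-fold and 1.08-fold, and the lowest loaded value was 1.82 times the highest unloaded value. This gave a log2 fold change of 0.93 ± 0.07 (SE), or 1.90-fold, at percentile 97.1 of all tested genes.

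The constitutive heme oxygenase *Hmox2* (ENSMUSG00000004070.15, chr16:4726361-4766742, plus strand) had 59.2 and 48.5 CPM in unloaded cells and 64.5 and 47.2 CPM in loaded cells. The groups overlapped, and replicate 1 was the higher library in each. The log2 fold change of 0.05 ± 0.18 (SE) took the other sign without loaded replicate 1 (-0.19) or without unloaded replicate 2 (-0.08). *Hmox2* shares 892 exonic bases with *Cdip1* on the other strand, whose counts were 1136, 1210, 1381 and 687 in the same library order, with loaded replicate 2 the lowest for both genes. With the counts of the pair summed, an alternative chosen after seeing the data, the log2 fold change was -0.07. That sum holds all counts of *Cdip1*, not only those of the shared bases, so it does not give the value of *Hmox2* alone. The value of *Hmox2* is uncertain, since its sign changed with the library left out.

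The balance of the enzymes was also read within each library. *Hmox1* made up 69.2% and 73.5% of the summed TPM-like level of both heme oxygenases in unloaded cells, and 79.1% and 84.8% in loaded cells. The loaded libraries had the larger share, without overlap. These shares use the contrast that was known when the genes were picked and rest on the uncertain *Hmox2* value.

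Biliverdin is reduced to bilirubin by the biliverdin reductases. *Blvra* (ENSMUSG00000001999.15, chr2:127070665-127097084, plus strand), the main form of the adult, had 17.0 and 19.0 CPM in unloaded cells and 14.6 and 14.0 CPM in loaded cells. *Blvrb* (ENSMUSG00000040466.16, chr7:27447978-27466144, plus strand), which also works as a flavin reductase, had 609 and 683 counts in unloaded cells and 1183 and 978 counts in loaded cells, with means of 21.8 ± 1.11 and 34.7 ± 2.72 CPM (SD, n = 2). Both loaded libraries were below both unloaded libraries for *Blvra* and above them for *Blvrb*. *Blvra* had a log2 fold change of -0.33 ± 0.13 (SE). For *Blvrb* it was 0.68 ± 0.11 (SE), or 1.60-fold. *Blvrb* made up 52.0% and 51.1% of the summed TPM-like level of both reductases in unloaded cells and 68.8% and 67.3% in loaded cells. This shift from nearly equal levels toward *Blvrb* was present in both loaded libraries, but the near equality depends on the length used. By the longest transcript, *Blvrb* and *Blvra* had means of 38.4 and 32.8 in unloaded cells, without overlap. In loaded cells these means were 60.6 and 25.7. The shares of the reductases also use the contrast that was known when the genes were picked.

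*Flvcr1* (ENSMUSG00000066595.9, chr1:191005847-191026158, minus strand) encodes a membrane transporter first described as a heme exporter and later also as a choline transporter. It had 606 and 532 counts in unloaded cells and 2088 and 2041 counts in loaded cells, which were 20.9 and 17.6 CPM against 64.7 and 68.5 CPM. Both loaded libraries stood far above both unloaded ones, since the nearest values of the groups differed 3.10-fold while replicates differed 1.19-fold and 1.06-fold. The log2 fold change was 1.79 ± 0.12 (SE), or 3.47-fold, with 3.19 and 3.77 at 1 SE to either side. Of the 16269 tested genes, it ranked 97 by fold change. An antisense transcript, *A230020J21Rik*, shares 809 exonic bases with *Flvcr1*. Its counts were 75, 71, 115 and 55 in the order unloaded 1, unloaded 2, loaded 1 and loaded 2. With all counts of both genes summed, an alternative chosen after seeing the data, the log2 fold change was 1.68.

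The related *Flvcr2* (ENSMUSG00000034258.4, chr12:85746539-85813585, plus strand) was close to the limit of detection, with 25 and 13 counts in unloaded cells and 64 and 41 counts in loaded cells. The values did not overlap, but the unloaded replicates themselves differed 2.01-fold. Low values of the table pile up at 4, 8, 12 and 16 counts, so that 1 sequenced fragment may be worth up to about 4 counts. Values of 1, 2 and 3 also occur (3264, 3038 and 2314 values, against 4960 at 4), and the worth of a fragment is not settled by the table. The *Flvcr2* values may thus stand for few fragments, and the log2 fold change of 1.38 ± 0.51 (SE) moved between 0.96 and 1.97 as single libraries were left out. *Flvcr1* made up between 94.3% and 97.1% of the summed TPM-like level of both transporters in the 4 libraries, with no separation of the groups.

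**Figure D2:**
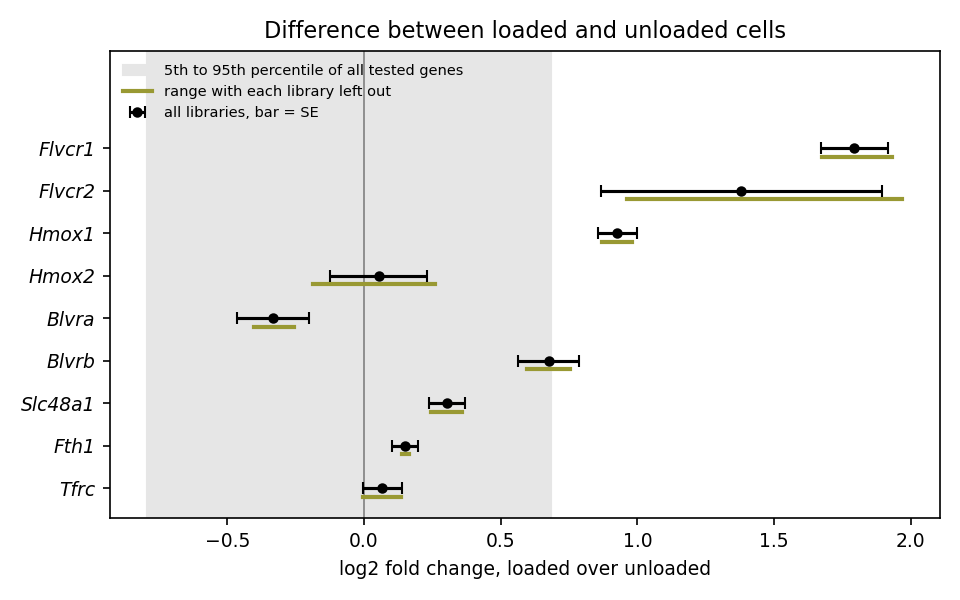
The log2 fold change (loaded over unloaded) of the 9 tested genes with its SE (black), the range over fits that omit 1 library (olive), and the 5th to 95th percentile of all tested genes (grey band). *Flvcr1*, *Flvcr2* and *Hmox1* lie to the right of the band, and the ranges of *Hmox2* and *Tfrc* cross 0.

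The reference sequence in front of the genes was searched for the core letters of the antioxidant response element, TGACNNNGC, on both strands. RefSeq promoter windows (GRCm38.p6), from 250 bases before to 50 bases after a start site, matched 7 of the 10 genes with 12 windows. *Hmox1*, *Slc48a1* and *Slc40a1* were not searched. The core was present in 2 of the 12 windows, those of *Flvcr1* and *Blvra*, against 12.4% of all 32851 windows. The element shares letters with the AP-1 motif TGACTCA, which neither match contains. The stretch before the start of *Flvcr1* is shown because *Flvcr1* had the largest fold change of the 9 tested genes over all 4 libraries (without unloaded replicate 1 that of *Flvcr2* was larger, with log2 values of 1.97 and 1.93), and the stretch at *Blvra* because its core lies on the other strand. They are chr1:191026191-191026440 (minus strand) and chr2:127070602-127070622 (plus strand), with the core in capitals. A match is a description of the letters and does not show that a factor binds there.

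Flvcr1: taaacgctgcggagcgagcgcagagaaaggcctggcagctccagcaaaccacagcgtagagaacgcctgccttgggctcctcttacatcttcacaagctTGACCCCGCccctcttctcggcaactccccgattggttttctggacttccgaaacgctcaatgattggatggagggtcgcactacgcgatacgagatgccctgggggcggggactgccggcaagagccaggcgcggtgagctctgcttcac
Blvra: ggaattGCTCGGTCAaggctc

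The 2 windows of *Blvrb*, the 2 of *Fth1*, the 2 of *Tfrc*, the 3 of *Hmox2* and the 1 of *Flvcr2* had no match, which says only that these letters are not in those windows.

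*Slc40a1* (ferroportin, ENSMUSG00000025993.10, chr1:45908068-45926523, minus strand), the exporter of free iron, had 0 counts in all 4 libraries. With a floor of 3 fragments, taken at 4 counts each as 12 counts, this allows at most 0.413 CPM in the unloaded and 0.403 CPM in the loaded libraries, which covers counting error only. No fold change was computed.

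*Fth1* (ENSMUSG00000024661.7, chr19:9980598-9985098, plus strand), the ferritin heavy chain with the iron-oxidizing site, had 1286 and 1297 CPM in unloaded cells and 1422 and 1443 CPM in loaded cells. Replicates differed by 1.01-fold in each group, and both loaded libraries were higher by at least 1.10-fold. As a log2 fold change this was 0.15 ± 0.05 (SE). Ferritin heavy chain has processed copies in the genome. Only 1 other gene of the table, *Gm6977*, matched the longest coding transcript at 90% identity or more over at least 200 bases, with 26 to 60 counts against at least 37334 for *Fth1*.

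*Tfrc* (transferrin receptor, ENSMUSG00000022797.16, chr16:32608920-32632794, plus strand), through which most cells take up iron, had 588 and 545 CPM in unloaded cells and 566 and 621 CPM in loaded cells. The groups overlapped. Its log2 fold change of 0.07 ± 0.07 (SE) was within its error, and without loaded replicate 2 it was -0.0025. The TPM-like level of *Fth1* was 3.90 and 4.24 times that of *Tfrc* in unloaded cells and 4.48 and 4.15 times in loaded cells, so this ratio of storage to uptake overlapped between the groups.

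Iron responsive elements were then located in the transcripts of these genes, since they tie *Fth1*, *Slc40a1* and *Tfrc* to the same regulators. The pattern was a C, 5 bases, the loop CAGTGN and 5 bases that pair with the first 5, with G-T pairs allowed. It was found in 294 of 21901 protein-coding genes (1.34%). *Fth1* and *Slc40a1* held 1 match each in the 5′ UTR and *Tfrc* held 4 in the 3′ UTR, while the other 7 genes had none. As background, an iron regulatory protein bound in the 5′ UTR blocks translation, and bound in the 3′ UTR it protects the mRNA from decay. The sites are shown with the loop in capitals, on GRCm38, to let the shared hairpin be seen. They lie at chr19:9982732-9982760 (*Fth1*, plus strand), chr1:45925465-45925493 (*Slc40a1*, minus strand) and, for *Tfrc* on the plus strand, chr16:32631219-32631247, chr16:32631598-32631626, chr16:32631663-32631691 and chr16:32631710-32631738.

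Fth1: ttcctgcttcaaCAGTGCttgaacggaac
Slc40a1: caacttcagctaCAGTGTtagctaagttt
Tfrc site 1: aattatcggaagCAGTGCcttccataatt
Tfrc site 2: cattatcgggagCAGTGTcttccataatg
Tfrc site 3: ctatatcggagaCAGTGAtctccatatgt
Tfrc site 4: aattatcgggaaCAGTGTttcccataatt

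Levels of mRNA do not show how much of these proteins was made.

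Genes whose values over the 4 libraries lay closest to *Flvcr1* and to *Hmox1* were sought among 9683 other genes with a mean of at least 10 CPM, by the Euclidean distance between log2 CPM profiles centred on their means. The nearest to *Flvcr1* were *Pygo2* (distance 0.347), *Plin4* (0.564), *Plekhh2* (0.603), *Gsta4* (0.642) and *Map3k7* (0.779). *Pygo2* had 26.2 and 29.6 CPM in unloaded cells and 107 and 111 CPM in loaded cells, and *Gsta4*, a glutathione transferase, had 29.1 and 32.6 CPM against 67.1 and 77.9 CPM. *Hmox1* had closer neighbours, namely *Slc35e2* (0.0468), *Luzp1* (0.118), *Renbp* (0.129), *Cdv3* (0.134) and *Acadsb* (0.148). *Slc35e2* had 14.2 and 13.9 CPM in unloaded cells and 25.4 and 26.9 CPM in loaded cells. Both loaded libraries lie above both unloaded ones in these genes because they were selected for that likeness.

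**Figure D3:**
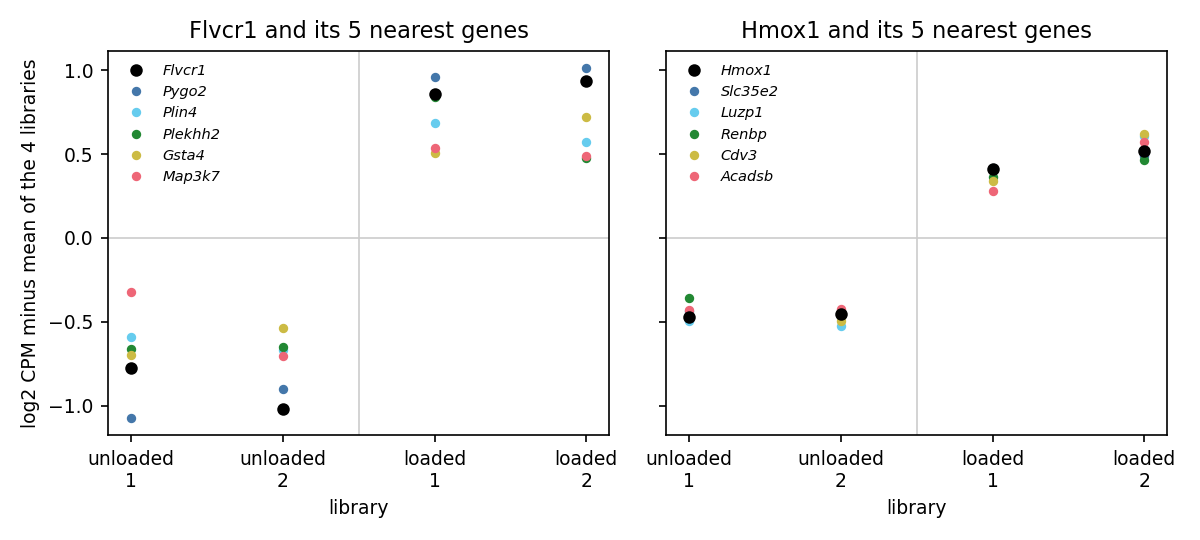
Log2 CPM in each library minus the mean of the 4 libraries, for *Flvcr1* (left, black) and *Hmox1* (right, black) and the 5 genes nearest to each. The neighbours were chosen for lying close to the black points, and the *Hmox1* neighbours lie closer to it than those of *Flvcr1*.

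The wider pathway was read from 7 lists written by function, which hold 68 further genes, 57 of them tested. None was called at an adjusted p under 0.01 by edgeR in either direction, with 8 higher and 9 lower at an unadjusted p under 0.05, where 6.88% and 7.46% of all tested genes were. DESeq2 called 1 higher and 1 lower, where it called 1.36% and 1.55% of its 12484 genes. At an adjusted p under 0.05, edgeR called 0 higher and 1 lower, against 0.338% and 0.565% of all tested genes. Log2 fold changes were positive in 27 and negative in 30 of the 57, with a median of -0.012 against -0.0089 for all tested genes. Both loaded libraries lay above the unloaded ones in 17 of the 57 and below them in 13, where 22.1% and 24.5% of all tested genes did so. The lists were written with earlier results known and no test of a list as a whole was made.

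The 1 gene called at 0.05 was *Cp*, ceruloplasmin, a copper ferroxidase that oxidizes iron as it leaves the cell. It had 147 and 137 CPM in unloaded cells and 96.2 and 91.0 CPM in loaded cells, without overlap. Its log2 fold change was -0.60 ± 0.08 (SE), lower in 2 of 2 loaded libraries (edgeR quasi-likelihood test, Benjamini-Hochberg adjusted p = 0.0381). It was also the lower gene called by DESeq2. In its list of iron export and hepcidin control, 4 of 9 genes were tested, 1 with a positive and 3 with a negative log2 fold change (median -0.55). *Heph*, the related ferroxidase hephaestin, had 26 and 20 counts in unloaded cells and 4 in each loaded library, which is under the floor of 12 counts. It passed the filter on low counts only through the unloaded libraries, so nothing is read from its p-value. *Heph* is still counted among the 9 lower genes at an unadjusted p under 0.05 and the 13 genes lower without overlap. It is also 1 of the 3 negative genes of its list and enters the list median. Hepcidin itself (*Hamp* and *Hamp2*) had 0 counts throughout.

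The higher gene called by DESeq2 was *Nr1d1*, a heme-binding nuclear receptor of the circadian clock. It had 35.0 and 37.3 CPM in unloaded cells and 53.7 and 59.1 CPM in loaded cells, without overlap. With edgeR it missed both thresholds (log2 fold change 0.64 ± 0.10 SE, higher in 2 of 2 loaded libraries, adjusted p = 0.0639). All 7 genes of its list, the iron and heme sensors, were tested, 5 with a positive and 2 with a negative log2 fold change (median 0.05). *Bach1*, the heme-sensing repressor of *Hmox1*, had 53.8 and 48.5 CPM in unloaded cells and 61.1 and 55.6 CPM in loaded cells (edgeR adjusted p = 0.483). *Aco1*, which becomes an iron regulatory protein when it loses its iron-sulfur cluster, had the highest TPM-like level of the list. It had 103 and 107 CPM in unloaded cells and 108 and 117 CPM in loaded cells (edgeR adjusted p = 0.603). Of the 7 genes, 4 were separate in the higher direction, *Nr1d1*, *Bach1* and *Aco1* among them, and 0 in the lower. Of all tested genes, 22.1% and 24.5% were.

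Heme synthesis had 13 of 14 genes tested, 5 with a positive and 8 with a negative log2 fold change (median -0.036), and none called. *Ppox*, the oxidase of the penultimate step, had 14.7 and 15.8 CPM in unloaded cells and 9.89 and 10.8 CPM in loaded cells (edgeR adjusted p = 0.165). *Fech*, which inserts the iron, had 72.2 and 73.2 CPM in unloaded cells and 55.1 and 58.6 CPM in loaded cells (edgeR adjusted p = 0.163). *Cpox*, the enzyme of the step before *Ppox*, singled out after its values were seen, had 96.1 and 97.6 CPM in unloaded cells and 123 and 113 CPM in loaded cells (edgeR adjusted p = 0.189). These 3 neighbouring enzymes thus had no common direction, and none passed the test. *Tmem14c*, a porphyrin carrier, had the highest TPM-like level of the list. It had 54.3 and 55.9 CPM in unloaded cells and 53.5 and 54.0 CPM in loaded cells (edgeR adjusted p = 0.903).

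Other heme transporters and heme-binding proteins had 10 of 12 genes tested, 4 with a positive and 6 with a negative log2 fold change (median -0.049), and none called. *Lrp1*, the receptor of the heme-hemopexin complex among many ligands, had 1395 and 1377 CPM in unloaded cells and 1180 and 1191 CPM in loaded cells (edgeR adjusted p = 0.121). *Abcg2*, an exporter with porphyrins among its substrates, had only 40 and 45 counts in unloaded cells and 14 and 23 in loaded cells (edgeR adjusted p = 0.331). Neither difference passed the test, although both groups were separate.

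Iron uptake and reduction apart from *Tfrc* had 11 of 13 genes tested, 7 with a positive and 4 with a negative log2 fold change (median 0.10), and none called. *Scara5*, a receptor that takes up ferritin, had 80.9 and 85.2 CPM in unloaded cells and 60.7 and 63.2 CPM in loaded cells (edgeR adjusted p = 0.121). *Slc11a2* (DMT1), which carries iron out of the endosome, had 95.9 and 104 CPM in unloaded cells and 135 and 116 CPM in loaded cells (edgeR adjusted p = 0.208). *Steap1* had the highest TPM-like level of the list, with 87.6 and 89.0 CPM in unloaded cells and 98.6 and 110 CPM in loaded cells (edgeR adjusted p = 0.299). The 3 genes were separate between groups, *Scara5* in the lower and the others in the higher direction, and none passed the test.

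Among genes of iron storage apart from *Fth1*, 4 of 5 were tested, 3 with a positive and 1 with a negative log2 fold change (median 0.09), and none was called. The ferritin light chain *Ftl1* had 775 and 873 CPM in unloaded cells and 965 and 913 CPM in loaded cells (edgeR adjusted p = 0.326). The TPM-like level of *Fth1* was 0.641 and 0.574 times that of *Ftl1* in unloaded cells and 0.569 and 0.611 times in loaded cells, so the ratio of the chains overlapped between groups. *Pcbp2*, an iron chaperone, had 436 and 451 CPM in unloaded cells and 388 and 404 CPM in loaded cells (edgeR adjusted p = 0.285).

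Mitochondrial iron import and iron-sulfur cluster assembly had all 8 genes tested, 2 with a positive and 6 with a negative log2 fold change (median -0.058), and none called. *Slc25a37*, mitoferrin of the inner membrane, had the highest TPM-like level, with 238 CPM in both unloaded libraries and 218 and 207 CPM in the loaded ones (edgeR adjusted p = 0.325). *Glrx5*, which passes clusters on, had 58.1 and 64.5 CPM in unloaded cells and 77.7 and 69.2 CPM in loaded cells (edgeR adjusted p = 0.346). Both were separate between groups and neither passed the test.

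**Figure D4:**
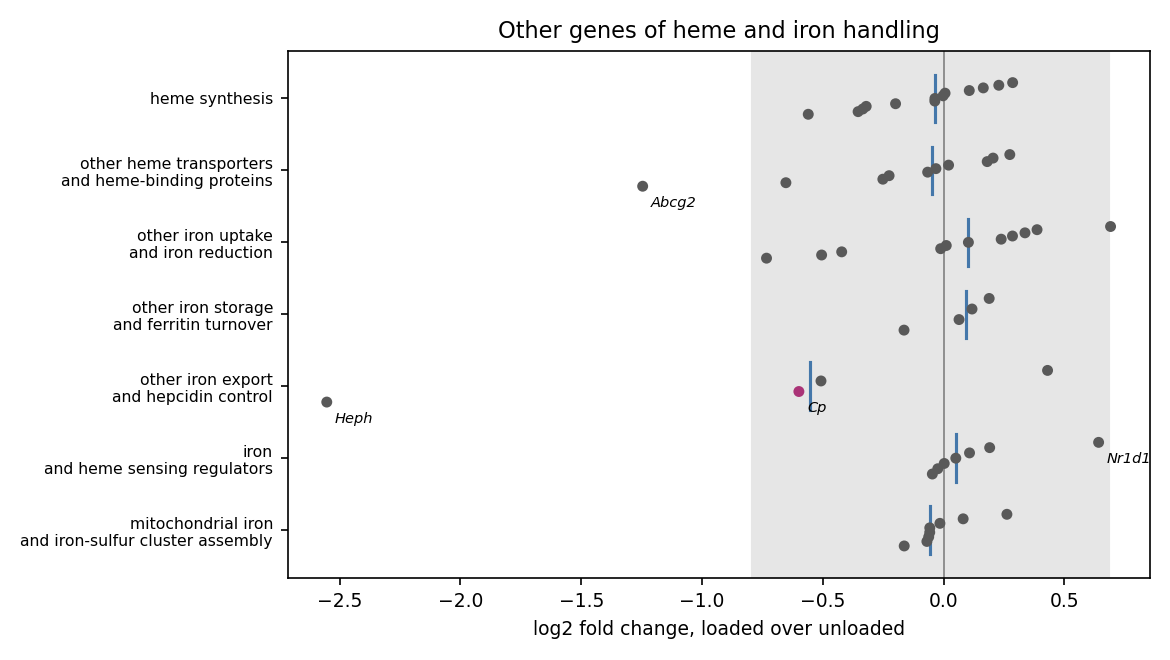
The log2 fold change (loaded over unloaded) of each tested gene of the 7 lists, with the list median (blue) and the 5th to 95th percentile of all tested genes (grey band). *Cp* (purple) was called at an adjusted p under 0.05, and *Heph*, far to the left, has 4 counts in each loaded library.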

How the data were processed

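Whole-number gene counts of 4 libraries were used as deposited. Per the submitters' processing notes, the authors used HISAT2 2.1.0, StringTie 1.3.5 and DESeq2 1.32.0 with mm10; read length and strandedness are not given in the sources used here. All 55450 identifiers were found in GENCODE M21 (GRCm38), which supplied symbols, positions and exon lengths. Genes were filtered with filterByExpr (count minimum 10), scaled by TMM and fitted with edgeR 4.0.16 (glmQLFit, glmQLFTest) in R 4.3.3, loaded against unloaded, without covariates. Benjamini-Hochberg adjustment ran over the 16269 genes tested, with a threshold of 0.01. Each SE was obtained from the log2 fold change and its F value. CPM is given after TMM scaling. The same code was tested on simulated data. Replicates differed beyond sampling noise (chi-square per degree of freedom 17.6 and 19.0, or 4.39 and 4.76 if a fragment is worth 4 counts), so neither pair was merged as the same library; separate cultures are not shown by this. Near-identical transcripts were sought with blastn 2.17.0. Alternatives included DESeq2 1.42.0, other scalings and filters, and leaving out each library. The genes and lists were chosen with earlier results of these data known. From each list, genes with an adjusted p under 0.05, the 2 smallest p-values and the highest level per length are named; others were chosen after their values were seen.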

Additional observations from a re-analysis of the deposited data

How the results depend on the processing

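At an adjusted p under 0.01, edgeR called 2 genes higher and 14 lower across the table, 1 of the 9 tested heme and iron genes higher, and none of the 57 genes of the wider lists. DESeq2 called 170 higher and 193 lower, with 3 of the heme and iron genes (*Flvcr1*, *Hmox1* and *Blvrb*) and 1 list gene in each direction. An adjusted p under 0.05 gave 55 and 92, 2 of the heme and iron genes (*Flvcr1* and *Hmox1*) and 1 list gene lower. At least 10 counts in every library gave 4 and 25, with 2 heme and iron genes. Protein-coding genes only gave 3 and 19 of 12645, with 2 heme and iron genes. Counts divided by 4 gave 3 and 15 of 12983, also with 2 heme and iron genes. The division by 4 was chosen after seeing the data, and *Flvcr2* was filtered out in it. No filter on low counts gave 0 and 0, with 0 heme and iron genes (1161 higher and 1274 lower at an unadjusted p under 0.05). The labels share replicate numbers only; deviations of same-numbered libraries correlated at -0.057 across genes, and with the replicate block 0 and 0 genes and 0 heme and iron genes were called (844 and 995 unadjusted). Leaving out each library in turn, with the lone sample assumed to vary like the other group, gave 0 to 19 genes higher, 0 to 40 lower and 0 to 2 heme and iron genes higher. The counts were 0 without loaded replicate 1 (970 and 1255 unadjusted) and without loaded replicate 2 (894 and 1192), 19 and 31 without unloaded replicate 1, and 18 and 40 without unloaded replicate 2. The cause of these differences was not tested. The log2 fold change of *Flvcr1* ranged from 1.67 to 1.93, of *Hmox1* from 0.87 to 0.98, of *Blvrb* from 0.60 to 0.75, of *Blvra* from -0.40 to -0.25, of *Fth1* from 0.14 to 0.16 and of *Slc48a1* from 0.15 to 0.36 over all alternatives, summed overlapping and near-identical genes included. The 0.15 of *Slc48a1* is its sum with all counts of *Hdac7*. As single libraries were left out, *Slc48a1* lay between 0.245 and 0.360. *Hmox2* ranged from -0.19 to 0.26 and *Tfrc* from -0.0025 to 0.13. With the longest transcript in place of the exon union, 4 of 10 positions in the order of mean levels over the 4 libraries moved. Within groups, the unloaded order was the same by both lengths, and in loaded cells *Tfrc* (318) passed *Slc48a1* (311), with overlap, and *Blvrb* (60.6) passed *Flvcr1* (43.2), without overlap. Depth limits *Flvcr2* and *Heph*, and *Slc40a1* was not detectable.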

Other observations

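*Ncoa4*, the receptor that delivers ferritin to the lysosome, was singled out after its values were seen. It had 36.8 and 84.1 CPM in unloaded cells and 90.4 and 40.7 CPM in loaded cells. The replicates of each group differed 2.29-fold and 2.22-fold, given as ratios, and the groups overlapped. Over all tested genes the median absolute difference between replicates was smaller. On the log2 scale, which is not that of the ratios, it was 0.159 in unloaded and 0.172 in loaded cells.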
